A study of Mus musculus with 16 samples.

Results

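Intron clusters next to 3′ splice sites are the places where RNA crosslinked to PGC-1α piled up in the last stretch of an intron, just before the exon that follows it. A cluster was taken when its midpoint lay in an intron of the gene's chosen transcript (the protein-coding GENCODE M21 transcript with the longest coding sequence), on the same strand and in no exon of any transcript, 1 to 500 nt upstream of the downstream exon, and at least as close to that exon as to the upstream one. By this rule 56560 of the 1331383 clusters in the 8 libraries were members. They lay in 25026 introns of 7190 genes, out of 188713 introns in 21866 protein-coding genes with a chosen transcript. The cells were primary hepatocytes of C57BL/6J mice kept overnight in starvation medium and crosslinked with ultraviolet light of 254 nm at 400 mJ/cm2, after which RNA was recovered with an antibody to PGC-1α by a single-end form of eCLIP. Control cells were untreated, treated cells had 200 nM glucagon for 3 h, and RNA was taken from a lower and an upper band, with 2 replicates of each of the 4 combinations. The 8 input samples were not analysed here as files of their own; each cluster carries the authors' fold over input. Whether replicate libraries came from different animals or dishes is not stated, so each p below measures spread among these libraries alone, which may be technical spread. Lower and upper bands are counted as separate libraries, and whether they came from the same cells is not stated.

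An intron is removed in steps that depend on its 3′ end. A branch point adenosine, a tract of pyrimidines and the final AG are read by SF1, the U2AF proteins and the U2 particle, and regulators such as PTBP1 or hnRNP C bind the same stretch. The 5′ end of an intron, in contrast, is paired first with the U1 particle. PGC-1α, the coactivator of the fasting programme in liver, carries an arginine and serine rich region and an RNA recognition motif of the kinds found in splicing factors. Reads near a 3′ splice site come from unspliced or partly spliced RNA.

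Clusters per library ran from 26279 in glucagon lower band replicate 1 to 260814 in control upper band replicate 2, the next smallest library having 97629. Read depth is unknown. All 5 hepatocyte markers checked (Alb, Apoa1, Ttr, Apob and Serpina1a) had clusters, 48 to 887 each over the 8 libraries. Of 3 markers each, 1 Kupffer cell marker had clusters (44), 1 endothelial marker (1), 1 cholangiocyte marker (7) and no stellate cell marker; their part in the results was not tested.

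The sequences of 4 enriched stretches show what crosslinked RNA at the end of an intron looked like in these data. Enriched here means a log2 fold over input of 3 or more together with a −log10 p of 3 or more. Letters could be read only from RefSeq promoter windows of GRCm38.p6 (250 bases before to 50 after a transcript start), so all 4 lie where RefSeq puts another start of the same gene inside or at the end of its first intron, and they do not stand for the members as a whole: 197 members (0.348%) lay inside such a window, with enriched clusters in 7 introns. Of these 197 members 27 (13.7%) were enriched, or 3.09% of all enriched members. They are written 5′ to 3′ on the gene's strand and cover the enriched clusters inside the window, up to the RefSeq start, so that parts of clusters past that start, and the Tnpo1 clusters nearer to the exon, are not shown. Capitals mark the bases shared by the enriched clusters of the most libraries. Stretches and capitals run from deposited start to deposited end, both counted, so their outermost bases may lie outside the clusters. Eif5a encodes a translation elongation factor (chr11:69920631-69920755, minus strand), and by this count its capitals are the 11 bases shared by all 8 libraries. Brd2 encodes a bromodomain reader of acetylated histones (chr17:34119922-34120140, minus strand, capitals shared by 3 of its 4 enriched libraries). Tnpo1 encodes a nuclear import receptor (chr13:98891043-98891192, minus strand, 3 of 4). Hnrnpf encodes a splicing regulator that binds runs of G (chr6:117917064-117917216, plus strand, 2 of 2, with 8 of its bases in an exon of another transcript).
Eif5a: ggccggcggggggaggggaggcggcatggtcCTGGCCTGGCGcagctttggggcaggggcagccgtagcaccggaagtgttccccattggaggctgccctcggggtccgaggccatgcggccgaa
Brd2: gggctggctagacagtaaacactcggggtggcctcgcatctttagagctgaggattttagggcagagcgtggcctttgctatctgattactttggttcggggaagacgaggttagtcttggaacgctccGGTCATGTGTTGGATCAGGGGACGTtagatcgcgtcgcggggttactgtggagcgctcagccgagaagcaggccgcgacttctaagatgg
Tnpo1: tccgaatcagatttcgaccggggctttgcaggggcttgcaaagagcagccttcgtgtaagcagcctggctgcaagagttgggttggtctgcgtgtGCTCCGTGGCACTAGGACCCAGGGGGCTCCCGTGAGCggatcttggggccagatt
Hnrnpf: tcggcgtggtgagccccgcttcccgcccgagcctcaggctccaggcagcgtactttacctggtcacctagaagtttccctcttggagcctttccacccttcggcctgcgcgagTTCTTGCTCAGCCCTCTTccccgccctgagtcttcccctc
The Eif5a stretch was 73.6% G or C and its longest unbroken run of pyrimidines was 6 bases, with a longest run of G also of 6 bases. The Brd2 stretch was 56.2% and the Tnpo1 stretch 60.7% G or C, each with a longest pyrimidine run of 5 bases. The Hnrnpf stretch was 64.1% G or C and held a pyrimidine run of 11 bases. The 32851 RefSeq promoter windows averaged 53.8% ± 11.3 (SD over windows). Brd2 and Tnpo1 were chosen after their values were seen, from the 7 stretches that could be read. Midn, Ppp1r10 and Sall1 could also be read and are not printed. Their stretches were 66.7%, 63.0% and 88.9% G or C, with longest pyrimidine runs of 5, 9 and 2 bases.

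Few clusters at 3′ splice sites were enriched. Of the 56560 members 875 (1.55%) were enriched, against 2.7% of all clusters, 6.36% of the 86328 clusters placed by the mirror rule next to 5′ splice sites, and 3.04% of the 723355 clusters lying over 500 nt from both exons (deep intron). In the control lower band 2.21% and 1.69% of members were enriched, in the control upper band 1.03% and 1.22%, with glucagon 5.94% and 0.947% (lower band) and 2.72% and 2.03% (upper band), replicates 1 and 2 in order. The same shares next to 5′ splice sites were 7.87% and 7.22%, 4.85% and 5.43%, 10.2% and 3.76%, and 8.38% and 8.75%. In every library the share at the 3′ end was the lowest of the 3 positions. The library with 5.94% is the smallest one, with 26 enriched among 438 members (exact Clopper-Pearson 95% interval 3.91% to 8.58%), and control upper band replicate 2 was read from 13731 members (1.05% to 1.42%); these intervals cover counting error only.

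The enriched share at 3′ splice sites minus that at 5′ splice sites was −4.83 ± 1.27 percentage points (SD, n = 8 libraries), lower in 8 of 8 libraries (two-sided exact sign-flip test p = 0.00781, the smallest that 8 libraries allow; Benjamini-Hochberg adjusted over 7 comparisons 0.0137). The difference from deep intron was −1.35 ± 0.580 points, also lower in 8 of 8 (exact p = 0.00781, adjusted 0.0137). The median log2 fold of members minus that of 5′ clusters was −0.24 ± 0.12 (lower in 7 of 8, exact p = 0.0156, adjusted 0.0219), while against deep intron it was −0.07 ± 0.09, lower in 4 of 8 libraries and higher in 1 (exact p = 0.125, adjusted 0.146). Clusters were also sparser: per intronic base within reach of each rule (66.2 Mb at 3′ ends, 63.9 Mb at 5′ ends) the log2 ratio of 3′ over 5′ clusters was −0.78 ± 0.26, negative in 8 of 8 (exact p = 0.00781, adjusted 0.0137).

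**Figure D1:**
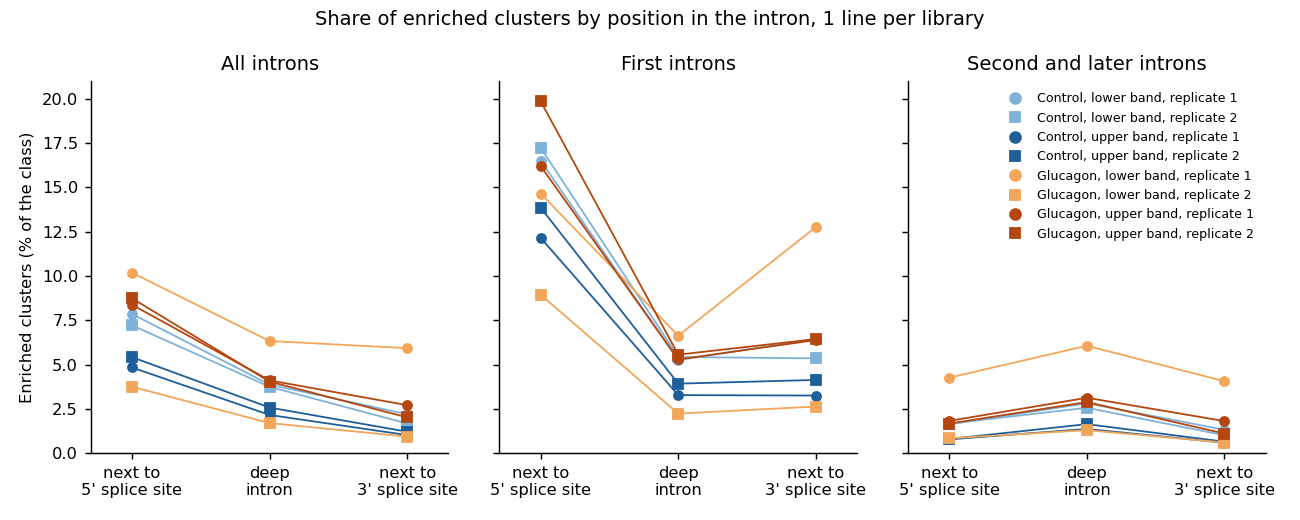
Share of clusters that were enriched (percent, y axis) next to 5′ splice sites, in deep intron and next to 3′ splice sites, for all, first and later introns; each line is 1 of the 8 libraries. Over all introns the 3′ position is lowest in 8 of 8 libraries, and in first introns the line of glucagon lower band replicate 1 rises to 12.8% from 94 clusters.

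Position along the gene split the members. In first introns 5.93% ± 3.14 (SD, n = 8) of members were enriched, in later introns 1.40% ± 1.15. First introns by library gave 6.46% and 5.36% (control lower), 3.26% and 4.14% (control upper), 12.8% and 2.64% (glucagon lower), and 6.39% and 6.45% (glucagon upper). Later introns gave 1.33% and 1.02%, 0.602% and 0.660%, 4.07% and 0.613%, and 1.82% and 1.12%. The first intron was higher in each library, by 4.53 ± 2.04 points (8 of 8, two-sided exact sign-flip p = 0.00781, adjusted 0.0137). First introns held 17.4% ± 2.06 of members but 49.7% ± 3.61 of enriched members. By intron number the enriched share was 2.49% ± 1.69 in the next intron, 1.87% ± 1.54 in number 3 and 1.78% ± 1.80 in number 4. It was 0.796% ± 0.573 in number 5, 1.36% ± 1.56 in numbers 6 to 10 and 0.949% ± 0.841 beyond number 10. From number 2 on, the ranges of mean ± SD of neighbours in that order overlap, and neighbours were not tested against each other.

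**Figure D2:**
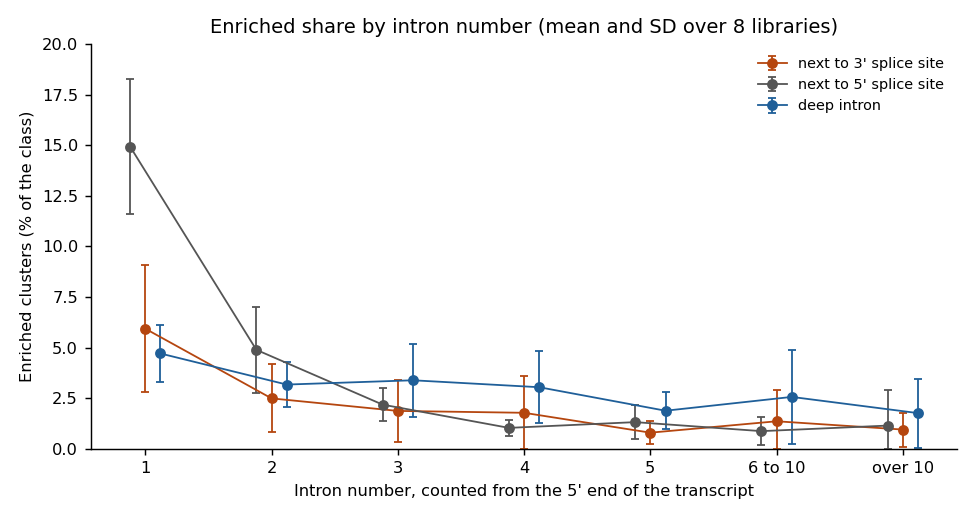
Enriched share of clusters (percent, y axis) by intron number (x axis) for the 3 positions; points are means over 8 libraries and bars their SD, cut at 0 below. Members are at 5.93% in first introns, 2.49% in the next, 0.796% in number 5, 1.36% in numbers 6 to 10 and 0.949% beyond number 10. Clusters next to 5′ splice sites start at 14.9%.

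The order of the 3 positions was not the same in first and later introns; both subsets were fitted after the data were seen. Within first introns members (5.93%) were 1.23 points above deep intron (4.71% ± 1.43), the opposite of the pooled direction (higher in 6 of 8, exact sign-flip p = 0.0312, adjusted 0.0469), while 5′ clusters were at 14.9% ± 3.35. Glucagon lower band replicate 1, with 94 first-intron members, differed from deep intron by 6.13 points on its own, and without it the gap to deep intron was 0.526 points (exact p = 0.0625, adjusted 0.075). Within later introns members (1.40%) differed by −1.33 points from deep intron (2.73% ± 1.53) and by −0.291 points from 5′ clusters (1.70% ± 1.13), lower in 8 of 8 libraries in both. The cluster density of the 3′ end relative to the 5′ end was −1.99 ± 0.35 (log2) in first introns and −0.29 ± 0.13 in later ones.

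Members were also grouped by distance from the transcript start. First-intron members within 1000 nt of the start were enriched in 9.54% ± 3.45 (109 of 1346 pooled), and those from there to 2000 nt in 9.72% ± 5.30 (72 of 981). From 2000 to 5000 nt it was 4.84% ± 3.27, from 5000 to 20000 nt 4.04% ± 1.90, and beyond 20000 nt 5.12% ± 3.49. In deep first intron it was 17.1% ± 3.78 within 1000 nt and 3.72% ± 1.32 from 5000 to 20000 nt. Next to 5′ splice sites of first introns it was 15.2% ± 3.44 within 1000 nt, where 30875 of the 32455 clusters lay. There it was 11.1% ± 6.08 from 1000 to 2000 nt and 0.521% ± 1.47 from 2000 to 5000 nt (1 of 133). Later-intron members were at 4.65% ± 5.40 within 1000 nt (9 of 226) and 2.47% ± 1.35 from 1000 to 2000 nt (19 of 691). They were at 1.63% ± 1.15 from 2000 to 5000 nt, 1.67% ± 1.57 from 5000 to 20000 nt and 1.20% ± 1.07 beyond 20000 nt. Later-intron 5′ clusters were at 9.56% ± 6.15, 8.45% ± 2.77, 3.12% ± 3.14, 0.983% ± 0.383 and 1.00% ± 0.675 in the same ranges. Over 5000 nt from the start the mean of later-intron members was thus not below that of 5′ clusters, with overlapping spreads. Pooled over libraries, members and 5′ clusters were at 1.02% and 0.846% from 5000 to 20000 nt, and at 0.740% and 0.736% beyond. The part of start distance in the difference between 3′ and 5′ ends was not tested. Among members over 2000 nt from the start, first introns were still 3.10 points above later introns (higher in 8 of 8 libraries, exact sign-flip p = 0.00781; a setting added after the data were seen).

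Along the 500 nt window clusters thinned at the splice site itself. Relative to the window's average density, the 1 to 20 nt bin stood at 0.761 ± 0.241, the 51 to 100 nt bin at 1.17 ± 0.126 and the 401 to 500 nt bin at 0.873 ± 0.055 (SD, n = 8). The mirror window at the 5′ splice site was emptier close in, with 0.271 ± 0.112 at 1 to 20 nt and 0.395 ± 0.156 at 21 to 50 nt. Pooled over libraries 5 of 1894 members (0.264%) were enriched at 1 to 20 nt, 41 of 4392 (0.934%) at 21 to 50 nt and 199 of 9455 (2.10%) at 301 to 400 nt. Averaged over libraries these shares were 1.05% ± 2.38, 1.84% ± 2.41 and 2.74% ± 1.62 (SD, n = 8), and 2 of the 5 clusters at 1 to 20 nt came from glucagon lower band replicate 1, where they were 6.90% of 29. The first bins cover the polypyrimidine tract and the usual reach of the branch point. The enriched share at 1 to 100 nt minus that in the rest of the window was −0.455 ± 0.889 points, lower in 6 of 8 libraries, and did not pass the test (exact sign-flip p = 0.211, adjusted 0.211). Without glucagon lower band replicate 1, which has 8 enriched of 115 near members, the difference was −0.718 points and passed (exact p = 0.0312, adjusted 0.0365). With all 8 libraries it also passed under 5 of the other settings tried and not under the rest, the 5 including equal weight per gene (−0.943 points) and introns of at least 2000 nt (−0.847 points).

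**Figure D3:**
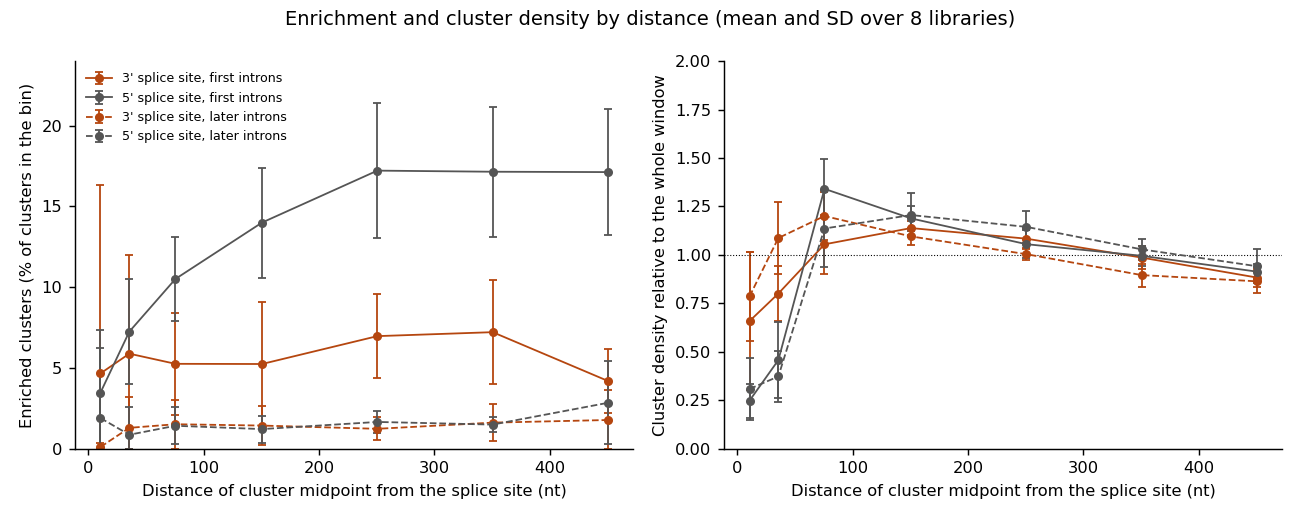
Left, enriched share of clusters (percent) and right, cluster density relative to the whole 500 nt window (ratio, dotted line at 1), both against distance of the midpoint from the splice site in nt; solid lines are first introns, dashed lines later introns, points are means over 8 libraries and bars their SD, cut at 0 below. In first introns the 5′ curve climbs from 3.48% at 1 to 20 nt to 17.1% at 401 to 500 nt, and the 3′ curve has means of 4.20% to 7.22%, of which the 1 to 20 nt point (4.67% ± 11.7) rests on 3 enriched of 216 clusters (1.39% pooled).

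Members were short, with a median length of 41.0 ± 2.00 nt (SD, n = 8), and 66.1 ± 7.47 nt when enriched. The median distance to the exon was 205 ± 6.48 nt, and 245 ± 33.9 nt when enriched. The cluster of 2254 members (4.32% ± 0.987) ran into the exon although its midpoint was intronic, and 19 of these were enriched. At the edge of the rule, 2.53% ± 2.88 of clusters in the last 50 nt inside it were enriched and 2.99% ± 2.63 of those in the next 50 nt outside it.

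In 433 of the 25026 introns with a member (1.73%) the 3′ window held an enriched cluster in at least 1 library, in 382 genes. For 5′ windows it was 5.55% of 28299, and for deep introns 7.46% of 29878. Of the 433 windows 298 (68.8%) were enriched in 1 library, 61 in 2, 34 in 3, 17 in 4 and 23 in 5 or more. At 5′ windows 46.4% and at deep introns 39.2% were seen in 1 library. A deep window is the whole interior of an intron, so these shares of windows are not like for like. The 29878 deep windows held 723355 clusters, the 28299 5′ windows 86328 and the 25026 3′ windows 56560. The part of window size was not tested. An enriched member overlapped an enriched cluster of the other replicate in 21.1% ± 10.1 of cases (SD, n = 8), against 39.9% ± 14.8 at 5′ ends and 22.4% ± 9.66 in deep intron. Of the 433 windows, 201 (46.4%) were first introns.

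Only the first introns of Eif5a and Sik1 were enriched at the 3′ end in all 8 libraries. Eif5a, whose protein carries the amino acid hypusine, has a first intron of 728 nt (chromosome 11, 69920435 to 69921162, minus strand, mm10), and its clusters had midpoints 214 to 298 nt from the exon. The stretch printed above holds most of their bases, and 2 of the 12 enriched clusters run past its 3′ end. Its highest log2 fold was 3.95 and 6.17 in the control lower band, 4.35 and 4.27 in the control upper band, and with glucagon 3.31 and 4.16 (lower) and 3.33 and 3.91 (upper). The means were 4.68 ± 1.00 in control and 3.68 ± 0.42 with glucagon (SD, n = 4 each), and the groups overlapped. Sik1 encodes a kinase that cAMP induces and that holds back CREB coactivators. Its first intron of 607 nt lies on chromosome 17 at 31855065 to 31855671 (minus strand), with clusters 29 to 238 nt from the exon. Its highest log2 fold was 4.14 and 4.31 (control lower), 3.33 and 3.77 (control upper), 3.47 and 3.77 (glucagon lower), and 3.86 and 4.46 (glucagon upper), or 3.89 ± 0.44 in control and 3.89 ± 0.42 with glucagon. Enriched clusters in this window numbered 1, 1, 2 and 1 in control and 1, 2, 3 and 4 with glucagon, which overlap.

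**Figure D4:**
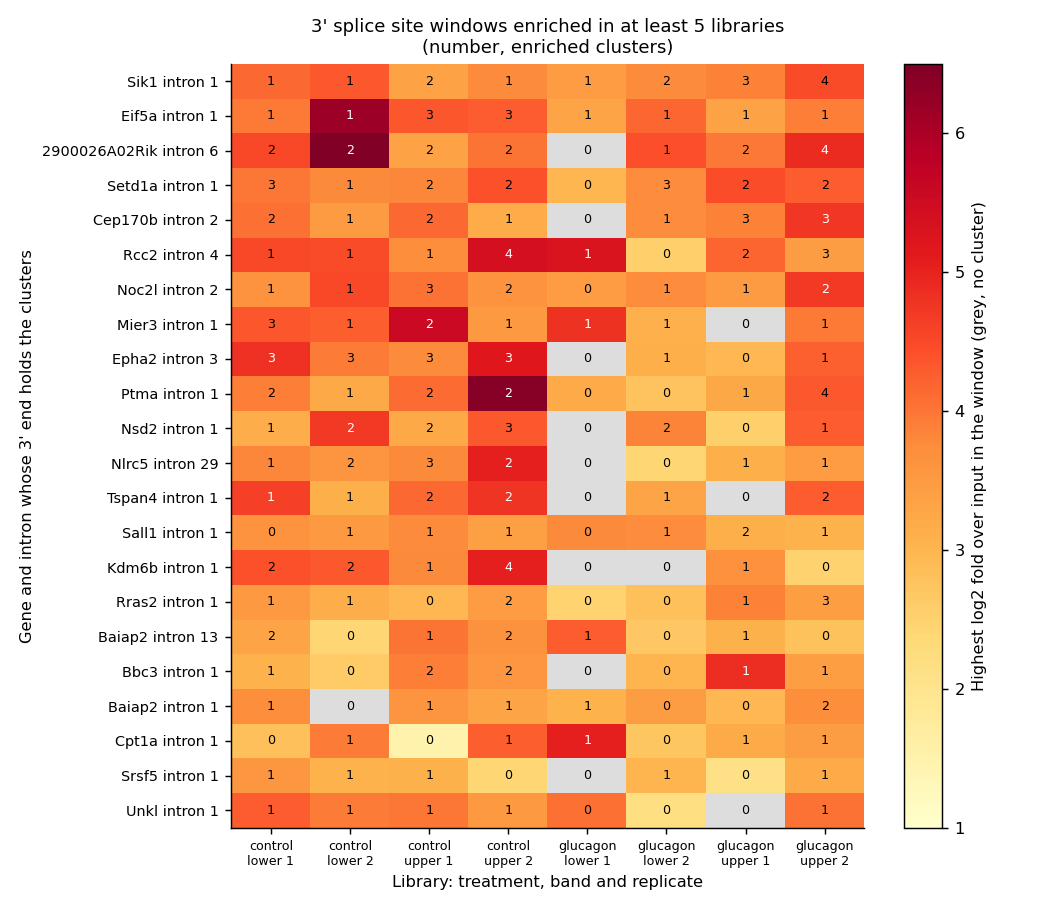
Windows enriched in 5 or more libraries (rows, 22 of the 23 introns) by library (columns); colour is the highest log2 fold over input in the window, grey means that no cluster was listed, and the number is the count of enriched clusters. Eif5a and Sik1 are filled with at least 1 in all 8 columns, and the Epha2 row holds 3 in each control column and 0 or 1 in each glucagon column.

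Epha2 was the single 3′ window whose count of enriched clusters did not overlap between treatments. It encodes a receptor tyrosine kinase for membrane-bound ephrins, and the window is the end of its intron 3 (7506 nt, chromosome 4, 141309081 to 141316586, plus strand). Each control library had 3 enriched clusters there; with glucagon both bands had 0 in replicate 1 and 1 in replicate 2. The highest log2 fold was 4.82, 3.93, 3.75 and 5.18 in control; with glucagon the smallest library listed no cluster and the others had 3.12, 2.96 and 4.23, so folds overlapped. Over all introns Epha2 held 39, 44, 55 and 67 clusters in control and 13, 27, 33 and 39 with glucagon, groups that meet at 39, and the part of this total in the window's count was not tested. Epha2 was thus 1 of 433 windows (0.231%) higher in control, and 0 were higher with glucagon. Over the 4234 intron windows of all 3 positions with an enriched cluster, 1.44% were higher in each control library and 0.142% in each glucagon library. By position these shares were 0.700% and 0.0636% at 5′ windows, and 2.20% and 0.224% at deep windows, which span whole intron interiors. Single windows were not tested.

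Other windows recurred in most libraries. The end of intron 6 of 2900026A02Rik, an intron of 73627 nt, had 2 enriched clusters in each control library. With glucagon it had 0 and 1 in lower band libraries and 2 and 4 in upper band ones. Its highest log2 fold was 6.52, in control lower band replicate 2. Over all 12 introns of the gene, 291 of 698 clusters in deep positions were enriched. Rcc2, which encodes a regulator of chromosome condensation, was enriched at the end of intron 4 in 7 libraries, with highest folds of 4.52, 4.47, 3.72 and 5.40 in control and 5.27, 2.54, 4.18 and 3.45 with glucagon. Cep170b, a centrosomal protein gene, was enriched at intron 2 in 7 libraries (1 to 2 clusters in control, 0 to 3 with glucagon). Mier3, a corepressor gene, was enriched at intron 1 in 7 libraries, with a best fold of 5.55. None of these separated the treatments.

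Ptma, which encodes the small acidic nuclear protein prothymosin α, had the highest fold of the members in the authors' reproducible lists. Its first intron (898 nt, chromosome 1, 86526951 to 86527848, plus strand) was enriched in 6 libraries, with highest log2 folds of 3.91, 3.23, 4.11 and 6.40 in control and 3.20, 2.75, 3.25 and 4.31 with glucagon. Its intron 2 was enriched in 4 libraries. Setd1a, a histone H3 lysine 4 methyltransferase gene named after its values were seen, had enriched clusters in its first intron of 765 nt in 7 libraries, with folds of 3.75 to 4.44 there.

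Some genes had several enriched 3′ windows. Aacs, the cytosolic enzyme that activates acetoacetate for lipid synthesis, Myh9, a nonmuscle myosin heavy chain, and Tns1, an adhesion adaptor, had 4 each. Agrn (agrin), Aldh4a1 (proline breakdown), Als2cl and Baiap2 (an actin adaptor) had 2. Many other genes also had 2, among them Ptma, Setd1a, Rcc2 and Eif5a, and the genes named first are those first in order of symbol. Most of the enriched clusters of the genes with 4 windows lay elsewhere: Myh9 had 218 enriched clusters in deep intron and 10 at 3′ ends, and Tns1 337 and 10. Aacs had 64 in deep intron, 11 at 5′ ends and 9 at 3′ ends.

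The authors' reproducible lists, 1 per treatment and band, held few members: 33 of 2206 peaks (1.50%) in the control lower band, 85 of 3692 (2.30%) in the control upper band and, with glucagon, 5 of 413 (1.21%) in the lower and 46 of 2167 (2.12%) in the upper band. Of all members 169 (0.299%) were listed, against 0.64% of all clusters. Members made up 2.05%, 2.98%, 3.07% and 3.00% of the intronic peaks in the lists, and 6.04%, 7.12%, 5.68% and 6.45% of the intronic clusters of the same groups. The 169 peaks lay in 86 genes, 98 of them (58.0%) in first introns, at a median of 263 nt from the exon. Eif5a and Setd1a were in all 4 lists. In the authors' deposited lists the leading log2 folds were 5.05 (2900026A02Rik), 4.90 (Eif5a) and 4.54 (Rcc2) in the control lower band. They were 5.22 (Ptma), 4.64 (Epha2) and 4.50 (Mier3) in the control upper band. The glucagon lower band list was led by Cpt1a (3.90), Eif5a (3.52) and Naca (3.48), and the glucagon upper band list by Sik1 (4.36), 2900026A02Rik (4.29) and Cep170b (4.23).

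Among the genes of the splicing machinery itself, none of 23 genes with a member for 3′ splice site and branch point recognition (U2af1, U2af2, Sf1, the Sf3a and Sf3b genes and others) had an enriched 3′ window, over 242 clusters. Of the polypyrimidine and intronic regulators 3 of 22 had one, and of the SR proteins and cofactors 2 of 18. Over all genes it was 382 of 7189 gene symbols (5.31%), and with so few hits these shares are descriptions. Srsf5, an SR protein gene, was enriched at the end of intron 1 in 5 libraries, at folds of 3.01 to 3.57. Hnrnpk was enriched at intron 3 in 4 libraries (best 4.84), Ptbp1, the polypyrimidine tract binding protein, at intron 2 in 2 (3.14 and 3.27), Hnrnpf at intron 1 in 2 (4.73 and 4.66) and Srrm2, a splicing scaffold, at intron 12 in 1 (4.28).

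Of the glucagon and cAMP response genes 3 of 23 had an enriched 3′ window: Sik1 in 8 libraries, Akap1, the mitochondrial anchor of protein kinase A, in 3, and Klf15 in 2. Klf15 encodes a fasting transcription factor, and its introns 1 and 3 were enriched in 1 glucagon library each. At intron 1 the highest log2 fold was 3.16 in that library, glucagon upper band replicate 2. Control lower band replicate 2 reached 3.42 there, without counting as enriched. Klf15 had 5, 14, 16 and 12 intron clusters in control and 5, 32, 16 and 37 with glucagon, which overlap. Cpt1a, the gate of mitochondrial fatty acid oxidation, was the 1 of 12 genes of oxidation and ketogenesis, enriched at intron 1 in 5 libraries with highest log2 folds of 2.82, 3.93, 1.49 and 4.25 in control and 5.05, 2.71, 3.21 and 3.44 with glucagon. The value of 5.05 comes from the smallest library.

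Esrra encodes the orphan receptor ERRα, with which PGC-1α acts on mitochondrial genes. Esrra intron 1 held 0, 0, 0 and 1 enriched clusters in control and 1, 2, 0 and 1 with glucagon, which overlap. Lipid and cholesterol synthesis had 5 of 16 genes with an enriched 3′ window (31.25%, against 5.31% over all genes). They were Gpam (2 introns), Fasn and Acly, each with 1 or 2 libraries an intron, and also Lpin1 and Lpin2. Lpin1 and Lpin2 fall outside the naming rule and are named for completeness. Genes of this list had a median of 15 members each, against 5 over all genes, and 2.55% of their members were enriched, against 1.55%. The part of member number in the count of genes was not tested. Fasn intron 1 reached 4.01, in control upper band replicate 2, and Acly intron 5 reached 3.93, in control lower band replicate 2. The secreted plasma protein genes had 1 of 7, C4b. The clock genes (18 with a member), insulin and FoxO genes (15) and gluconeogenesis and glycolysis genes (13) had none.

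Glucagon was compared with control within each band by exact permutation of 36 assignments, of which the smallest possible p is 0.0556, so no such comparison could pass 0.05. The enriched share of members was 1.54% ± 0.524 in control and 2.91% ± 2.15 with glucagon (SD, n = 4 each), a difference of 1.37 points (exact permutation p = 0.278, adjusted over 3 measures 0.333). Within the upper band both glucagon libraries (2.72% and 2.03%) were above both controls (1.03% and 1.22%). Over all clusters the upper band split the same way, at 3.37% and 3.66% with glucagon against 2.05% and 2.50% in control. Within the lower band the controls (2.21% and 1.69% of members) lay between the glucagon libraries (5.94% and 0.947%). Without glucagon lower band replicate 1 the pooled difference in the enriched share of members was 0.124 points. Members made up 5.58% and 6.36% (control lower), 6.94% and 7.28% (control upper), 4.32% and 5.81% (glucagon lower), and 5.81% and 6.72% (glucagon upper) of intronic clusters. The difference in that share, glucagon minus control, was −0.878 points (exact permutation p = 0.111, adjusted 0.333), and −0.506 points without the smallest library, the groups overlapping over both bands. The median log2 fold of members was 0.39 higher with glucagon (exact permutation p = 0.333), and 0.06 higher without that library.

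Between bands, the upper band had a share of members among intronic clusters 1.17 points higher than the lower band (exact permutation p = 0.111, adjusted 0.25), with both control upper libraries above both control lower ones. Its enriched share of members differed by −0.942 points (exact permutation p = 0.611), a sign that turned to 0.306 points higher without glucagon lower band replicate 1. Its median log2 fold differed by −0.51 (exact permutation p = 0.167, adjusted 0.25), and by −0.18 without that library. Upper band libraries listed more members than lower band ones in control (11693 and 13731 against 4349 and 7169), and the smallest library had the highest median log2 fold (2.73); the part of cluster number in these differences was not tested. The RNA is from bulk cultures, in which fewer cells and less RNA per cell cannot be told apart.

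**Figure D5:**
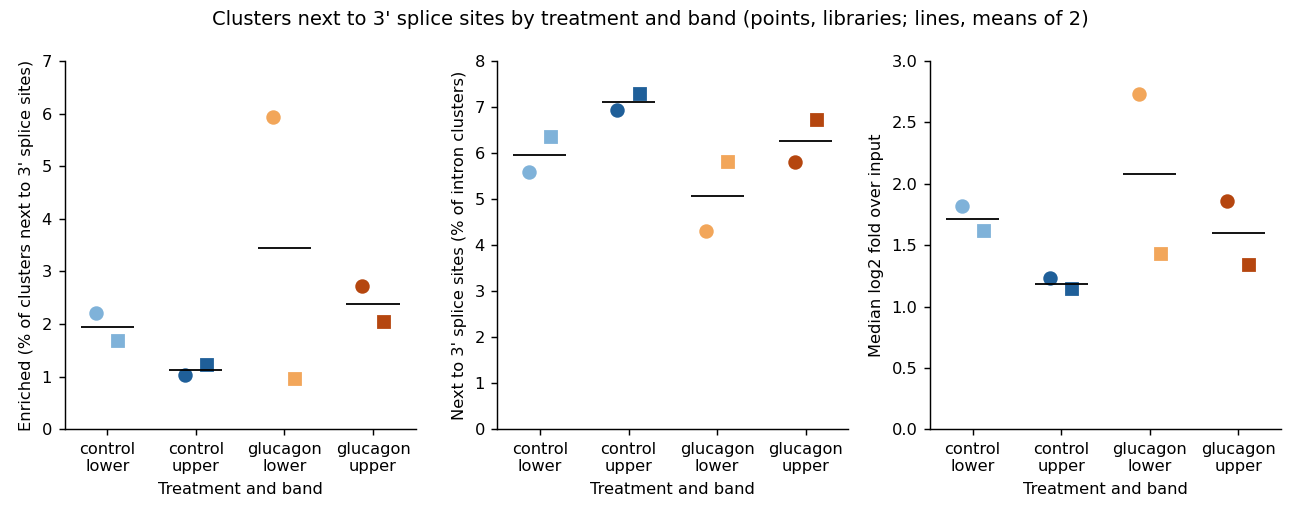
Enriched share of members (percent), share of members among intronic clusters (percent) and median log2 fold of members over input, by treatment and band; points are libraries (circle, replicate 1; square, replicate 2) and lines the means of 2. The glucagon lower band replicates are far apart in the left panel, at 5.94% and 0.947%.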

How the data were processed

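Single-end eCLIP of PGC-1α in mouse hepatocytes gave 8 IP libraries in 4 groups (treatment by band, 2 replicates), per the labels; 8 inputs were not used here as files. Per the submitters' processing notes, cutadapt and STAR were used with the mm10 build, without versions; what called the clusters is not given in the sources used here. For each cluster the authors deposited a −log10 p-value over input (capped at 400, a cap no member reached) and a log2 fold over input; both units were read from the values, as the files have no header. Depth is known only as clusters per library, 26279 to 260814. End coordinates ran 1 nt past exon ends in 25095 cases and matched them in 6762. Start coordinates plus 1 matched exon starts in 34677 cases. Printed starts and ends are as deposited, and printed sequences include the base at each.

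Clusters were placed by midpoint and strand in GENCODE M21, with the mirror rule for 5′ splice sites and a deep class over 500 nt from both exons. Members lying in a 5′ or deep position of another gene numbered 431, and 2996 overlapped a gene on the other strand. Placement was checked by brute force on 3000 clusters, with 0 different. Positions were compared by two-sided exact sign flips over 8 libraries (256 assignments), treatments and bands by exact permutation within strata (36), with Benjamini-Hochberg adjustment over 7, 3 and 3 results. Alternatives covered thresholds, the 5′ end of clusters, intron length, gene weights, merged bands, each library left out and a replicate block. Scripts ran in Python 3.11.15 with scipy 1.17.1, numpy 2.4.6, matplotlib 3.10.9 and pandas 2.3.3. Promoter sequences are from RefSeq (GRCm38.p6).

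The members and gene lists were chosen with earlier results of these data known. Named genes were the 8 with most enriched 3′ windows (ties by gene symbol), windows enriched in all 8 libraries, the 3 highest folds per reproducible list, windows not overlapping between treatments, and up to 3 genes per gene list. Genes outside this rule are marked in the text. A few results under this rule are left out of the text.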

Additional observations from a re-analysis of the deposited data

How the results depend on the processing

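Of 229 alternative values 209 kept direction and side of the threshold, 5 fell short of it, 7 newly passed it and 8 turned direction. The 229 include the treatment and band comparisons, whose smallest possible p of 0.0556 or more kept them from passing 0.05 in any setting. For these only the direction could change, so the 209 is not a count of results that could have changed side. With bands averaged there were 4 units and a smallest exact p of 0.125, so the 5 results that had passed could not: −1.35 and −4.83 points (members minus deep intron and minus 5′), −0.24 (median log2 fold minus 5′), −0.78 (log2 density ratio) and 4.53 points (first minus later introns). The difference of 1 to 100 nt from the rest of the window passed with no p threshold (−1.90 points), by the 5′ end of the cluster (−1.94), in introns of at least 2000 nt (−0.847), with equal weight per gene (−0.943) and in later introns only (−0.288). Placing clusters by their 5′ end, not their midpoint, gave a median log2 fold −0.52 against deep intron, which passed, and turned the share of members among intronic clusters to 0.0548 points higher with glucagon and −0.154 points for upper minus lower band. First introns only turned the differences from deep intron to 1.23 points and 0.0946 (median log2 fold), or 0.526 points and 0.0705 without glucagon lower band replicate 1; later introns only turned the median fold difference from 5′ to 0.0278 (exact p = 1). The causes were not tested.

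Leaving out 1 library at a time gave −1.49 to −1.25 points against deep intron, −5.12 to −4.56 against 5′, −0.09 to −0.05 and −0.27 to −0.21 for the median log2 folds, −0.81 to −0.70 for density, −0.718 to −0.274 for distance and 3.93 to 4.89 for first introns. For glucagon minus control it gave 0.124 to 2.62, −1.25 to −0.506 and 0.06 to 0.71, and for upper minus lower band −2.19 to 0.306, 0.798 to 1.54 and −0.83 to −0.18.

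Replicate numbers are shared between groups, but over 3286 introns the deviations of same-numbered replicates correlated at −0.0192 to 0.0403, and with 2 replicates the samples share only a number. With a replicate block the values were 1.37, −0.878 and 0.39 for glucagon (exact p 0.25, 0.125 and 0.25). For band they were −0.942, 1.17 and −0.51 (exact p 0.375, 0.125 and 0.125). The smallest exact p possible with this block was 0.125, so no comparison could pass the threshold and no call could change. Depth limits what the smallest library shows, with 438 members.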
